A study of Mus musculus with 8 samples.

Results

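This account describes 10 mouse genes that carry or receive the signals calling neutrophils into tissue, or that neutrophils hold in large amounts: the CXC chemokines Cxcl1, Cxcl2, Cxcl5 and Ppbp, their receptor Cxcr2, the calprotectin subunits S100a8 and S100a9, the cytokine Il1b, and the growth factor Csf3 with its receptor Csf3r. Members were chosen by name: probe sets with exactly 1 gene symbol on the list were taken. All 10 listed genes were found, each with 1 probe set, among the 19938 genes tested.

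Transcripts were measured on 8 arrays of mouse colonic tumors, 1 array per sample. The serrated group (3 arrays) comprised tumors of the proximal colon labelled K-rasG12Dint with Ink4a/Arf-/-. The K-rasG12D AOM group (3 arrays) comprised tumors of the distal colon induced with azoxymethane (AOM), a colon carcinogen, and labelled K-rasG12Dint. The LSL AOM group (2 arrays) comprised AOM-induced tumors of the distal colon labelled LSL-K-rasG12D/+, where LSL is lox-stop-lox, a removable block on transcription of the allele; their titles call them wild type. The first 2 of these groups share the K-rasG12Dint label, and all 3 carry a K-rasG12D allele by label. The labels name no Cre driver, no age and no origin in separate animals, and do not spell out "int". Tumor type, colon segment, AOM and the Ink4a/Arf genotype differ together between serrated and AOM tumors, so their parts cannot be told apart. No sample of normal colon was analysed here. Arrays are named below by group and number, as serrated 1 or LSL AOM 2.

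CXCL1, CXCL2 and CXCL5 bind CXCR2 on neutrophils and draw them from blood into inflamed tissue, and epithelial cells, macrophages and fibroblasts make them after stimulation by interleukin-1, TNF or IL-17 through the transcription factor NF-kB. PPBP is the precursor of another CXCR2 ligand, best known from platelet granules. S100A8 and S100A9 pair to form calprotectin, a calcium- and zinc-binding protein that is abundant in neutrophils, is also made by stratified epithelia, and is measured in stool as a sign of intestinal inflammation. G-CSF, the product of Csf3, drives neutrophil production through the receptor encoded by Csf3r.

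The promoters of Cxcl1, Cxcl2 and Cxcl3, a further CXCR2 ligand gene among the members on chromosome 5, carry the same 11 bases, which hold NF-kB matches and are shown because this factor is known to drive these genes. Ppbp and Cxcl15, of the same gene run, hold neither these bases nor an NF-kB match and are shown beside them. In serrated against K-rasG12D AOM tumors Cxcl1 and Cxcl2 fell and Cxcl3 did not pass. Of the genes without these 11 bases, Cxcl15 fell, while Ppbp and Pf4, the latter not shown, did not pass. Cxcl5 had no promoter sequence to search. The part of these bases in the changes was not tested. The sequences are the 120 bases before each start site on the + strand, from RefSeq on build GRCm38.p6, at chr5:90891125-90891244 for Cxcl1, chr5:90903779-90903898 for Cxcl2, chr5:90785981-90786100 for Cxcl3, chr5:90794414-90794533 for Cxcl15 and chr5:90768398-90768517 for Ppbp. Capitals mark the shared run.
Cxcl1: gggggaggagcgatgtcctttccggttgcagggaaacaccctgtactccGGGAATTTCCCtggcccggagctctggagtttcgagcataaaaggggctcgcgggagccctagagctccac
Cxcl2: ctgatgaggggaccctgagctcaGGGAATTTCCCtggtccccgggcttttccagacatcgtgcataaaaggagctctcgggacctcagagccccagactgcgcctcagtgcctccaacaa
Cxcl3: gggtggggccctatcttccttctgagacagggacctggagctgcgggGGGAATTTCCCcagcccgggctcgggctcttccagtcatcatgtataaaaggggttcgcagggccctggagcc
Cxcl15: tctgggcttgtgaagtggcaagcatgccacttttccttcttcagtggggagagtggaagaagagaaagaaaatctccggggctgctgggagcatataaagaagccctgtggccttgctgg
Ppbp: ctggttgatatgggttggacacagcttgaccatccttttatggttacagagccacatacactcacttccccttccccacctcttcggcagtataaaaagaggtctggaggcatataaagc
The run GGGAATTTCCC begins 71 bases before the start of Cxcl1, 97 bases before that of Cxcl2 and 73 bases before that of Cxcl3. It holds 2 overlapping matches to the NF-kB consensus of 10 letters, 1 on each strand. The same 11 bases occur in 14 of 32851 mouse promoter windows (0.0426%), where a window runs from 250 bases before to 50 bases after a start. Of the 10 members, 8 matched an entry of that promoter table. The NF-kB consensus, searched on both strands, was found in 3 of these 8 (Cxcl1, Cxcl2 and Csf3r), against 8.46% of all windows. The C/EBP motif TTGCNNAA was found in 1 of the 8, S100a9, against 10.8% of all windows. These matches describe letters in a window and not bound sites.

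Levels are given as log2 signal after RMA (robust multi-array average) processing, in which 1 unit is a 2-fold change. Errors beside a level are standard deviations (SD), and errors beside a log2 difference are standard errors (SE) from 1 limma fit to all 8 arrays. An adjusted p under 0.05, after Benjamini-Hochberg correction across the 19938 genes, was taken as passing. Array medians over genes lay between 4.17 and 4.31. Serrated 1 stood apart in its spread over genes, with an SD of 1.77 against 2.00 to 2.13 on the other 7 arrays, and 56.3% of its genes exceeded the 95th percentile of 1027 olfactory receptor genes, against 66.8% to 70.1% elsewhere. Olfactory receptors served as a background of genes that colon is not known to express, with a 95th percentile of 2.75 to 3.91 per array. Markers of colon epithelium, the labelled tissue, were present: 12 measured genes averaged 9.66 to 9.75 on serrated arrays, 9.01 to 9.07 on K-rasG12D AOM arrays and 9.16 to 9.26 on LSL AOM arrays.

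The clearest difference lay between serrated and K-rasG12D AOM tumors, the groups that share the K-rasG12Dint label. Cxcl5 was 10.1-fold, Cxcl2 5.92-fold, S100a8 4.37-fold and Cxcl1 2.40-fold lower in serrated tumors, and these 4 of the 10 members passed the test. On serrated 1 and 3 S100a8, and on serrated 1 Cxcl2, did not exceed the background, so the low end of these folds is set in part by background signal. Across all genes tested, 3.99% fell and 2.46% rose in this comparison. The median log2 difference of the 10 members was -1.48, beside 0.05 for all genes, and 9 of the 10 lay below 0. Leaving out any 1 array changed the number of members passing. It became 1 without K-rasG12D AOM 2 or 3, 2 without serrated 2 and 5 without serrated 3. Without serrated 1, K-rasG12D AOM 1 or either LSL AOM array it was 3. On 5 members, the same 4 and S100a9, all serrated arrays were lower than all K-rasG12D AOM arrays, a pattern found in 13.9% of all genes.

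**Figure D1:**
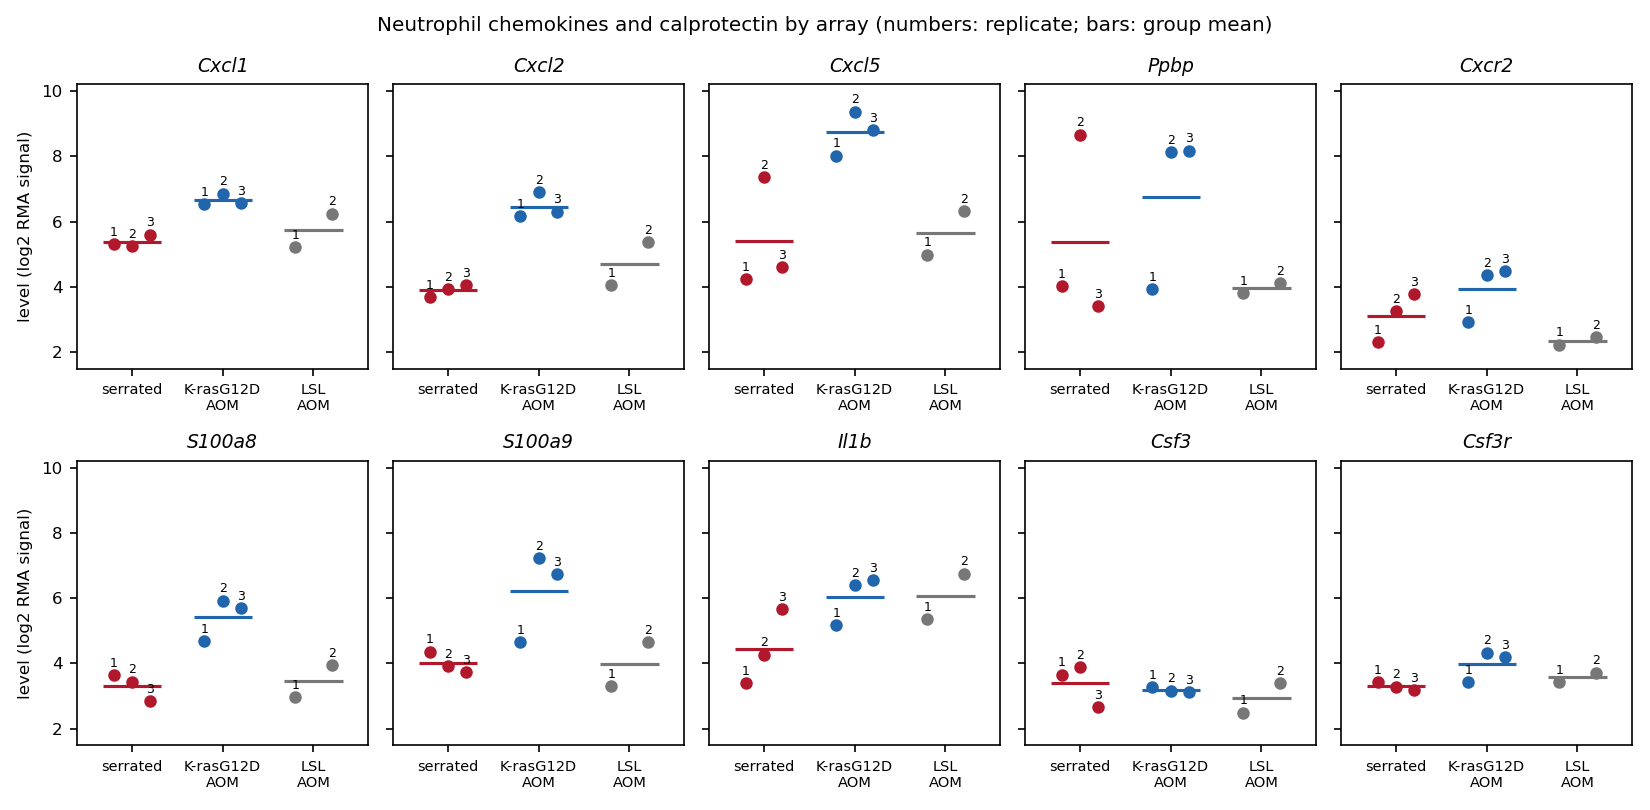
Log2 RMA level (y axis) of each of the 10 members in serrated, K-rasG12D AOM and LSL AOM tumors (x axis); each point is 1 array with its replicate number and each bar is a group mean. Cxcl1 and Cxcl2 of K-rasG12D AOM tumors lie above both other groups, while Ppbp splits the serrated and the K-rasG12D AOM arrays into levels over 8 and levels of about 4 or below.

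Cxcl2, the mouse chemokine also called MIP-2, had levels of 3.68, 3.94 and 4.05 in serrated tumors, 6.16, 6.90 and 6.30 in K-rasG12D AOM tumors, and 4.05 and 5.38 in LSL AOM tumors. Serrated arrays lay close together at the low end, K-rasG12D AOM arrays were all higher than every other array, and LSL AOM 1 sat at the edge of the serrated values, equal to serrated 3 at 2 decimals. Cxcl2 fell in serrated tumors against K-rasG12D AOM tumors, by 2.57 on the log2 scale (SE 0.34, limma adjusted p = 0.00456). That call held under each of the 14 alternative settings, including each array left out in turn, with log2 differences between -2.71 and -2.34. Among these settings, leaving out either LSL AOM array and fitting the compared groups alone are the same calculation.

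Cxcl1, the chemokine also called KC, had the same order of group means with smaller steps. Its levels were 5.30, 5.25 and 5.60 in serrated tumors, 6.54, 6.86 and 6.56 in K-rasG12D AOM tumors, and 5.22 and 6.24 in LSL AOM tumors. The K-rasG12D AOM arrays were the 3 highest. LSL AOM 1 had the lowest level of all 8 arrays, and LSL AOM 2 lay above every serrated array and below every K-rasG12D AOM array. Cxcl1 fell in serrated against K-rasG12D AOM tumors by 1.26 (SE 0.26, limma adjusted p = 0.0263). The call was lost without serrated 2 (adjusted p = 0.108), K-rasG12D AOM 1 (0.0726), K-rasG12D AOM 2 (0.116) or K-rasG12D AOM 3 (0.0662), each in the same limma fit. Over all 8 arrays the mean-centred profiles of Cxcl1 and Cxcl2 differed by a root mean square of 0.59 log2 units.

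Cxcl5, which epithelial cells are known to release, showed the largest log2 difference of the 10 members between serrated and K-rasG12D AOM tumors. Its levels were 4.23, 7.36 and 4.61 in serrated tumors, 8.02, 9.37 and 8.81 in K-rasG12D AOM tumors, and 4.99 and 6.31 in LSL AOM tumors. Serrated 2 stood well above the other serrated arrays and above both LSL AOM arrays, yet below every K-rasG12D AOM array. Cxcl5 fell in serrated against K-rasG12D AOM tumors by 3.33 (SE 0.77, limma adjusted p = 0.0383), and the log2 difference ran between -4.31 (without serrated 2, adjusted p = 0.00742) and -1.66 (with array weights, 0.064). The call was lost in 9 of the 14 alternatives. Among them were the limma fits without serrated 1 (adjusted p = 0.073) or K-rasG12D AOM 1 (0.0703), 2 (0.153) or 3 (0.101). It was also lost with limma's trend and robust options (0.0603), with array weights, and in a fit of the compared groups alone (0.0589). The fits without LSL AOM 1 or 2 (0.0589 each) are the same calculation as the fit of the compared groups alone.

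Ppbp did not follow the other ligands. It had levels of 4.03, 8.66 and 3.42 in serrated tumors, 3.94, 8.12 and 8.17 in K-rasG12D AOM tumors, and 3.81 and 4.12 in LSL AOM tumors. Serrated 2, K-rasG12D AOM 2 and K-rasG12D AOM 3 were high, the other 5 arrays lay between 3.42 and 4.12, and the groups overlapped. With ranges of 5.24 within serrated and 4.23 within K-rasG12D AOM tumors, the difference of -1.37 (SE 1.46) between these groups did not pass (limma adjusted p = 0.619), and it ran between -3.02 without serrated 2 and 1.88 with array weights, which turned its sign.

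Ppbp and Cxcl5 are neighbours on mouse chromosome 5, in a run of 7 CXC chemokine genes whose order is Cxcl5, Ppbp, Pf4, Cxcl3, Cxcl15, Cxcl1, Cxcl2. Pf4, a platelet chemokine, was flat, with levels of 3.59, 4.02 and 4.15 in serrated tumors, 3.92, 3.97 and 3.81 in K-rasG12D AOM tumors, and 4.47 and 3.98 in LSL AOM tumors. Cxcl3 had levels of 4.58, 4.63 and 3.81 in serrated tumors, 4.20, 5.94 and 5.82 in K-rasG12D AOM tumors, and 3.72 and 4.73 in LSL AOM tumors, so that K-rasG12D AOM 2 and 3 were high and K-rasG12D AOM 1 lay among the serrated values. Cxcl15, known as lungkine, had levels of 2.60, 2.30 and 1.62 in serrated tumors, 3.97, 4.19 and 4.98 in K-rasG12D AOM tumors, and 1.77 and 2.01 in LSL AOM tumors. It exceeded the olfactory receptor background on the 3 K-rasG12D AOM arrays and on no other. Cxcl15 fell in serrated against K-rasG12D AOM tumors by 2.21 (SE 0.32, limma adjusted p = 0.00619), with each array left out in turn as well, a difference from a level not above background on any serrated array. Neighbouring genes of this run thus differed in which K-rasG12D AOM arrays were high: all 3 for Cxcl5, Cxcl15, Cxcl1 and Cxcl2, and only replicates 2 and 3 for Ppbp and Cxcl3.

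**Figure D2:**
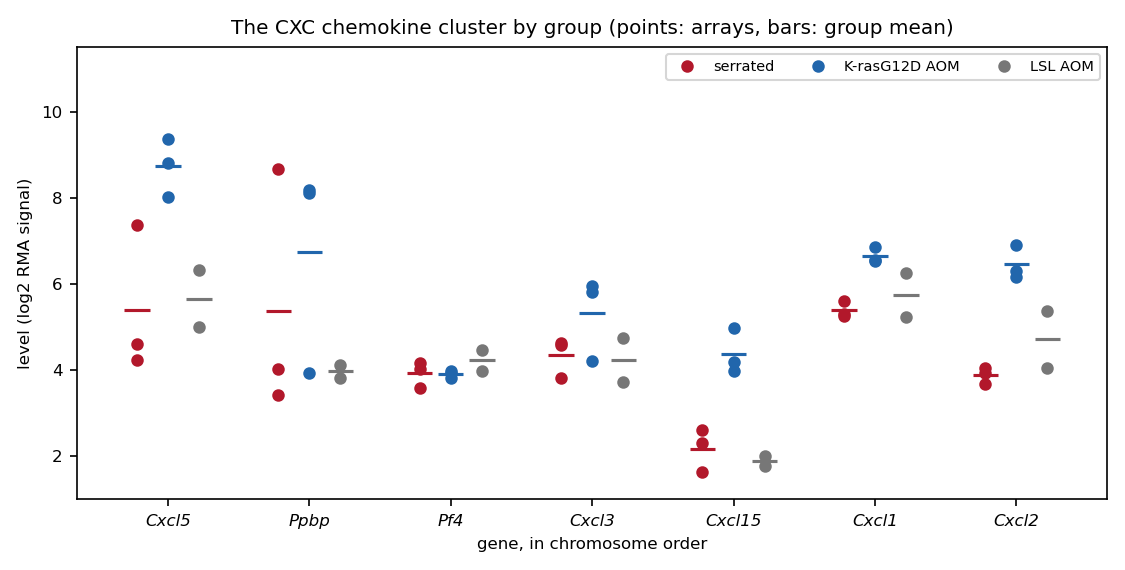
Log2 RMA level (y axis) of the 7 CXC chemokine genes in their order on mouse chromosome 5 (x axis), with points for arrays and bars for group means, coloured by group. K-rasG12D AOM arrays lie above all serrated arrays for Cxcl5, Cxcl15, Cxcl1 and Cxcl2, and Pf4 stays between 3.59 and 4.47 on all 8 arrays.

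Cxcr2, the receptor for these ligands, was dim and did not pass in any comparison. Its levels were 2.30, 3.26 and 3.78 in serrated tumors, 2.93, 4.36 and 4.49 in K-rasG12D AOM tumors, and 2.23 and 2.47 in LSL AOM tumors. It exceeded the olfactory receptor background on 4 of 8 arrays, the serrated replicates 2 and 3 and the K-rasG12D AOM replicates 2 and 3. The difference between serrated and K-rasG12D AOM tumors was -0.81 (SE 0.47, limma adjusted p = 0.362). In bulk tumor RNA, fewer cells of a type and less RNA per cell cannot be told apart, here and for every gene below.

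A list of 8 further genes set beside the CXCR2 axis held Cxcl3, Cxcl15, Pf4, Cxcr1, Ackr1, Mif, Cxcr4 and Cxcl12, all measured. Of these, 2 fell and 0 rose in serrated against K-rasG12D AOM tumors, beside 3.99% and 2.46% of all genes. The median log2 difference of the 8 was -0.54, beside 0.05 for all genes. The 2 were Cxcl15 and Mif, a cytokine known to bind CXCR2 as a noncanonical ligand. Mif had levels of 7.57, 7.38 and 8.17 in serrated tumors, 9.14, 9.17 and 8.86 in K-rasG12D AOM tumors, and 8.98 and 9.29 in LSL AOM tumors. The levels of Mif overlapped between both AOM groups and were lower on all serrated arrays. It fell against all AOM tumors by 1.39 (SE 0.21, limma adjusted p = 0.00534) and against K-rasG12D AOM tumors by 1.35 (adjusted p = 0.0129), the second without a call when serrated 2 (0.0553), K-rasG12D AOM 1 (0.0546) or K-rasG12D AOM 2 (0.0651) was left out. Of the 8 genes, 3 passed without serrated 3 and 1 without serrated 2, K-rasG12D AOM 1 or K-rasG12D AOM 2. Cxcr1, the other receptor for such ligands, had levels of 3.86, 2.98 and 3.03 in serrated tumors, 2.98, 2.92 and 3.24 in K-rasG12D AOM tumors and 2.60 and 2.86 in LSL AOM tumors, and did not pass.

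Both calprotectin subunits, S100a8 and S100a9, had their highest group mean in K-rasG12D AOM tumors, but S100a8 alone passed, and against serrated tumors only. S100a8 had levels of 3.64, 3.44 and 2.84 in serrated tumors, 4.68, 5.92 and 5.70 in K-rasG12D AOM tumors, and 2.97 and 3.94 in LSL AOM tumors. S100a9 had levels of 4.36, 3.92 and 3.73 in serrated tumors, 4.66, 7.23 and 6.74 in K-rasG12D AOM tumors, and 3.31 and 4.65 in LSL AOM tumors. On both genes K-rasG12D AOM 2 and 3 were highest, K-rasG12D AOM 1 came next, barely above LSL AOM 2 for S100a9, and serrated and LSL AOM arrays overlapped. S100a8 fell in serrated against K-rasG12D AOM tumors by 2.13 (SE 0.38, limma adjusted p = 0.0151). Its call was lost without serrated 2 (adjusted p = 0.0566), K-rasG12D AOM 2 (0.0724) or K-rasG12D AOM 3 (0.0542). For S100a9 the difference was -2.21 (SE 0.62, limma adjusted p = 0.0699), which did not pass, although it did without K-rasG12D AOM 1 (0.0131) and after removal of the dimmest 40% of genes (0.042). Their mean-centred profiles differed by a root mean square of 0.39, the smallest of all pairs of members.

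S100a8 and S100a9 are neighbours on chromosome 3. Beside them 19 other genes were measured, namely further S100 genes, S100pbp, Tlr4, Ager, Ly96, Cd14 and Myd88. Of these, 3 fell and 0 rose in serrated against K-rasG12D AOM tumors, beside 3.99% and 2.46% of all genes, with a median of -0.19. The 3 were S100a16 (-0.75, limma adjusted p = 0.0271), S100pbp (-0.76, 0.0257) and Cd14, a coreceptor of Toll-like receptor signalling (-0.78, 0.0495). Each was lost without serrated 2 (adjusted p = 0.113, 0.0548 and 0.179, in that order) and without each K-rasG12D AOM array, where p ranged between 0.0597 and 0.174, so that 0 of the 19 passed in each of those fits. Cd14 was also lost with limma's trend and robust options (0.0688) and with repeated quantile normalization (0.103). Against all AOM tumors 2 of the 19 rose and 2 fell, and against LSL AOM tumors 2 rose and 0 fell. Tlr4 was among the rises, by 1.08 (limma adjusted p = 0.0328) and 1.47 (0.032), in that order. Its call against all AOM tumors was lost without serrated 2 (0.139) or any 1 AOM array (0.0612 to 0.104).

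Il1b, the proinflammatory cytokine interleukin-1 beta, averaged 4.44 ± 1.14 in serrated tumors (SD, n = 3), 6.04 ± 0.75 in K-rasG12D AOM tumors (n = 3) and 6.05 ± 0.99 in LSL AOM tumors (n = 2). Its levels were 3.40, 4.27 and 5.66 in serrated tumors, 5.18, 6.39 and 6.54 in K-rasG12D AOM tumors, and 5.35 and 6.75 in LSL AOM tumors. Serrated 1 and 2 lay below all AOM arrays and serrated 3 lay among them. On serrated 1 Il1b did not exceed the background, so its lowest level is set in part by background signal. The differences were -1.59 (SE 0.61, limma adjusted p = 0.167) for serrated against K-rasG12D AOM tumors and -1.60 (SE 0.68, adjusted p = 0.227) against LSL AOM tumors. Neither passed. Without serrated 3 both did, at limma adjusted p = 0.0256 against K-rasG12D AOM and 0.0403 against LSL AOM tumors.

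Among 24 measured inducers and regulators of the IL-1, IL-17 and G-CSF pathways, 3 fell and 2 rose in serrated against K-rasG12D AOM tumors. Over all genes 3.99% fell and 2.46% rose, and the median of the 24 was -0.09. Il23a, the specific subunit of IL-23, a cytokine that sustains IL-17-producing cells, had levels of 3.33, 2.81 and 2.65 in serrated tumors, 4.74, 4.95 and 5.35 in K-rasG12D AOM tumors, and 5.09 and 4.25 in LSL AOM tumors. Its serrated arrays were all below the AOM arrays. The fall was 2.08 (limma adjusted p = 0.00494) against K-rasG12D AOM tumors, and it passed with each array left out in turn. No serrated array exceeded the background for Il23a, so the size of the fall is taken against background signal. Tnf, another inducer of these chemokines, had levels of 5.54, 5.58 and 5.80 in serrated tumors, 6.92, 6.33 and 6.64 in K-rasG12D AOM tumors, and 6.07 and 6.18 in LSL AOM tumors. It fell by 0.99 (SE 0.19, adjusted p = 0.0194), without a call when serrated 2 (0.0817), K-rasG12D AOM 1 (0.0761) or K-rasG12D AOM 3 (0.0611) was left out. Pycard, an inflammasome adaptor, rose by 1.47 (adjusted p = 0.0154), and Il17rc, a subunit of the IL-17 receptor, rose by 0.87 (0.0251). Pycard was lost without K-rasG12D AOM 1 (0.0664) or 2 (0.0721), and Il17rc without serrated 2 (0.101), K-rasG12D AOM 1 (0.1) or 2 (0.117). Of the 24 genes, 2 passed without serrated 2, K-rasG12D AOM 1 or K-rasG12D AOM 2, 3 without K-rasG12D AOM 3, and 7 without serrated 3. Of other inducers, Il6, Csf2 and Osm exceeded the olfactory receptor background on 0 arrays and Il17a on 1.

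Csf3 and Csf3r did not separate the groups. Csf3 had levels of 3.65, 3.88 and 2.66 in serrated tumors, 3.28, 3.16 and 3.11 in K-rasG12D AOM tumors, and 2.49 and 3.39 in LSL AOM tumors, and 5 of 8 arrays exceeded the olfactory receptor background. The groups overlapped throughout. Csf3r had levels of 3.43, 3.29 and 3.17 in serrated tumors, 3.43, 4.33 and 4.19 in K-rasG12D AOM tumors, and 3.42 and 3.72 in LSL AOM tumors. K-rasG12D AOM 2 and 3 were the highest, and K-rasG12D AOM 1 equalled serrated 1 at 2 decimals. The difference between serrated and K-rasG12D AOM tumors was 0.21 for Csf3 (SE 0.34, limma adjusted p = 0.741) and -0.68 for Csf3r (SE 0.25, adjusted p = 0.145).

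Set against the mean of both AOM groups, serrated tumors differed in fewer members. Cxcl2 alone passed, 1 of 10 members, with a fall of 1.69 (SE 0.30, limma adjusted p = 0.0118) and no overlap of the arrays. Over all genes, 5.76% fell, 3.62% rose, and 8.93% were lower without overlap. The call was lost without serrated 2 (adjusted p = 0.0527) and in a fit of the compared groups alone (0.0597). Cxcl1 (-0.80, SE 0.24, adjusted p = 0.0683), S100a8 (-1.14, SE 0.34, 0.0744) and Il1b (-1.60, SE 0.55, 0.107) did not pass. Leaving out 1 array gave a call to Cxcl1 without serrated 3 (0.0449) or LSL AOM 1 (0.0232), to S100a8 without K-rasG12D AOM 1 (0.0408), to S100a9 without K-rasG12D AOM 1 (0.0456), to Il1b without serrated 3 (0.0168) and to Cxcl5 without serrated 2 (0.0186). The median over the 10 members was -0.95, beside 0.04 for all genes.

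Against LSL AOM tumors alone, 0 of 10 members passed and 1 had an unadjusted limma p under 0.05, as did 4044 genes (20.3%), while 5.71% of all genes passed, 2.31% higher and 3.40% lower. Only Cxcl2 lay lower on all serrated than on both LSL AOM arrays, a pattern of 17.4% of all genes, and its difference was -0.82 (SE 0.38, limma adjusted p = 0.266). Estimates near 0 were found for S100a8 (-0.15, SE 0.43), S100a9 (0.02, SE 0.69) and Cxcl5 (-0.25), which with these errors does not show that the levels were equal. The median of the members was -0.20, beside 0.04 for all genes.

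K-rasG12D AOM tumors were higher than LSL AOM tumors in 9 of 10 members, without a call. The log2 differences were 3.08 for Cxcl5 (SE 0.86, limma adjusted p = 0.348), 2.23 for S100a9 (SE 0.69, 0.392), 1.97 for S100a8 (SE 0.43, 0.269), 1.74 for Cxcl2 (SE 0.38, 0.269), 1.58 for Cxcr2 (SE 0.52, 0.43) and 0.92 for Cxcl1 (SE 0.29, 0.408). On these 6 members all K-rasG12D AOM arrays exceeded both LSL AOM arrays, a pattern that 16.4% of all genes showed. In limma 0 of 10 members and 0% of all genes passed. At an unadjusted p under 0.05 there were 6 members and 1666 genes (8.36%). Ppbp differed by 2.78 (SE 1.64, adjusted p = 0.763) and Il1b by -0.01 (SE 0.68). This comparison shares its K-rasG12D AOM arrays with the one against serrated tumors, so that both rest on the same 3 high values per gene.

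**Figure D3:**
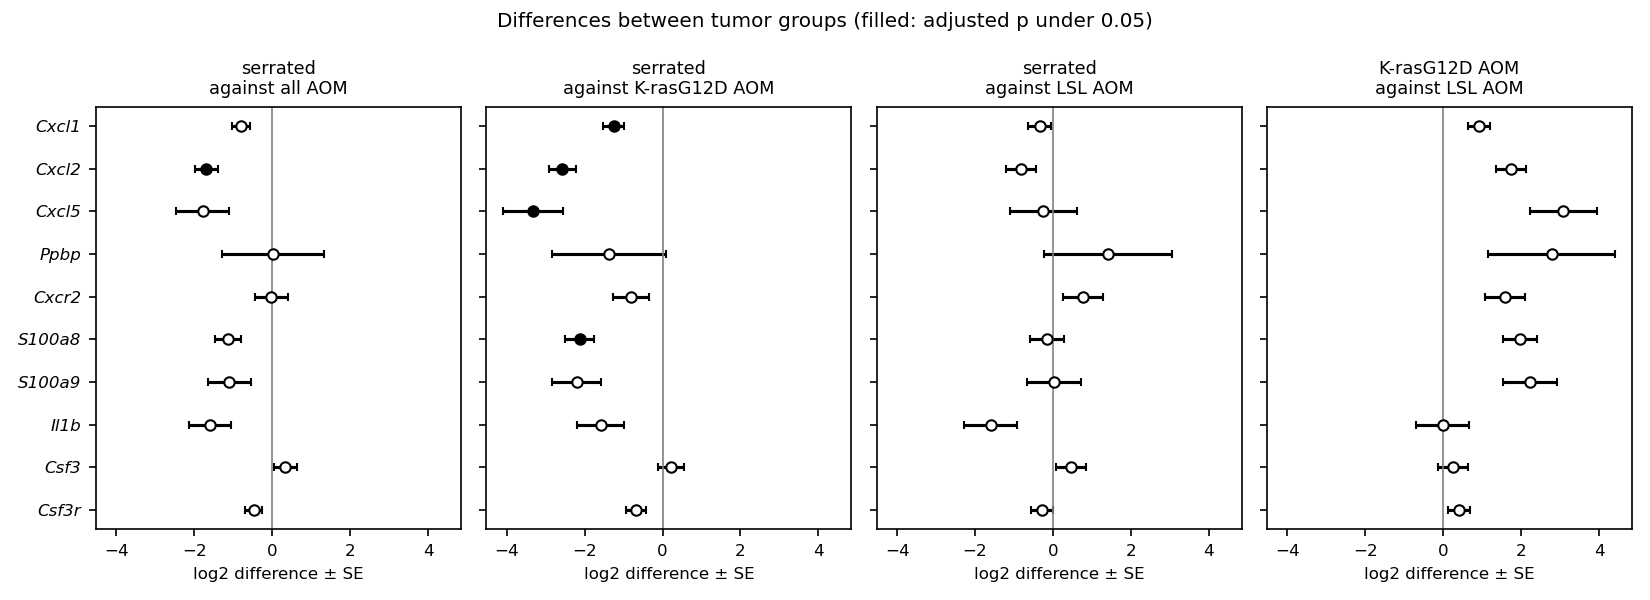
Log2 difference (x axis) with its standard error for each of the 10 members (y axis) in the 4 comparisons, from limma; filled points passed an adjusted p of 0.05. Filled points are Cxcl1, Cxcl2, Cxcl5 and S100a8 for serrated against K-rasG12D AOM tumors and Cxcl2 for serrated against all AOM tumors.

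The members also varied together between arrays of a group. LSL AOM 2 exceeded LSL AOM 1 in 10 of 10 members, by a median of 0.99, while 54.1% of all genes were higher on LSL AOM 2 and the median over all genes was 0.03. K-rasG12D AOM 2 exceeded K-rasG12D AOM 1 in 9 of 10 members (median 1.22, all genes -0.03), and K-rasG12D AOM 3 did so in 9 of 10 (median 0.90, all genes 0.00). Of all genes, 45.3% were higher on K-rasG12D AOM 2 and 50.3% on K-rasG12D AOM 3 than on K-rasG12D AOM 1. Among serrated arrays no such order was seen: serrated 2 was above serrated 3 in 6 of 10 members and serrated 1 in 5 of 10. K-rasG12D AOM 2 held the highest level of all arrays for 6 members, and LSL AOM 1 the lowest for 4. Serrated 1 held the lowest for 3, while its background was the highest of all arrays and only 4 of 10 members exceeded it there, against 8 to 10 on the other 7 arrays. How often each array held the highest or lowest level over all genes was not computed.

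Neutrophil markers were followed to see which of them moved with the members. In serrated against K-rasG12D AOM tumors 3.99% of all genes fell and 2.46% rose. Of 25 markers measured, 4 fell (Lcn2, Mmp9, Ly6g and Itgb2) and 0 rose, with a median of -0.68. With 1 array left out, 8 passed without serrated 3, 2 without K-rasG12D AOM 1, and 1 without serrated 1, serrated 2, K-rasG12D AOM 2 or K-rasG12D AOM 3. Lcn2, the siderophore-binding lipocalin of neutrophil granules that inflamed colon epithelium also makes, had levels of 3.92, 5.71 and 5.77 in serrated tumors, 8.90, 9.25 and 9.57 in K-rasG12D AOM tumors, and 8.92 and 10.05 in LSL AOM tumors. It fell in serrated tumors by 4.11 against K-rasG12D AOM tumors (limma adjusted p = 0.00334) and by 4.35 against LSL AOM tumors (0.00438), the second lost without LSL AOM 2 (0.0565). Both AOM groups were high, unlike for S100a8. Mmp9, a gelatinase of neutrophils and macrophages, had levels of 4.21, 4.04 and 5.13 in serrated tumors, 6.24, 5.81 and 6.02 in K-rasG12D AOM tumors, and 7.82 and 6.64 in LSL AOM tumors. It fell against all AOM tumors by 2.17 (SE 0.32, adjusted p = 0.00539), with each array left out in turn as well, and LSL AOM arrays were the highest. Against K-rasG12D AOM tumors alone the fall was 1.56 (adjusted p = 0.0382), lost without serrated 1 or 2 or any 1 K-rasG12D AOM array (0.0719 to 0.145).

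Ly6g, the surface marker that defines mouse neutrophils but belongs to a family of similar genes, had levels of 8.11, 6.90 and 8.84 in serrated tumors, 9.76, 9.62 and 10.26 in K-rasG12D AOM tumors, and 7.81 and 8.37 in LSL AOM tumors. K-rasG12D AOM arrays were the 3 highest, as for Cxcl2, and the fall in serrated tumors was 1.93 (SE 0.44, limma adjusted p = 0.0368). Reads of similar family members by the same probes were not tested. The call was lost without any 1 of the 8 arrays other than serrated 3, at adjusted p between 0.0509 and 0.111, with repeated quantile normalization (0.0526) and in a fit of the compared groups alone (0.0612). Itgb2, the beta-2 integrin of leukocytes, fell by 1.14 (adjusted p = 0.0399) and was lost without any 1 array other than serrated 3 (0.053 to 0.151) and in a fit of the compared groups alone (0.0718).

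Other neutrophil genes differed widely in brightness. Cd177, a surface protein of neutrophils, had levels of 8.74, 8.04 and 6.93 in serrated tumors, 7.62, 8.26 and 8.64 in K-rasG12D AOM tumors, and 7.38 and 7.23 in LSL AOM tumors. It exceeded the olfactory receptor background on 8 of 8 arrays, and its groups overlapped. Retnlg had levels of 2.21, 1.85 and 1.96 in serrated tumors, 2.19, 4.45 and 3.31 in K-rasG12D AOM tumors, and 1.87 and 2.44 in LSL AOM tumors. Trem1 had 2.45, 1.80 and 2.48 in serrated tumors, 2.42, 3.77 and 3.37 in K-rasG12D AOM tumors, and 2.06 and 2.53 in LSL AOM tumors. Both were above the olfactory receptor background only on K-rasG12D AOM 2 and 3, the arrays with the highest S100a8 and S100a9. Of the granule protein genes, Elane, Ctsg and Ngp exceeded the background on 0 arrays, Mpo and Mmp8 on 1, Prtn3 on 5, Camp on 7 and Ltf on 8. The 11 measured genes of the shorter neutrophil marker list averaged 4.11, 4.08 and 3.70 in serrated tumors. They averaged 3.87, 4.46 and 4.37 in K-rasG12D AOM tumors and 3.42 and 3.81 in LSL AOM tumors, and these groups overlapped. Of the 11, 1 fell (Ly6g) and 0 rose in serrated against K-rasG12D AOM tumors, beside 3.99% and 2.46% of all genes. Beside these averages, serrated 1 had the highest background of all arrays (95th percentile 3.91), and on serrated 2 Ltf stood at 9.65. The part of neutrophil number in the differences of the members was not tested.

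**Figure D4:**
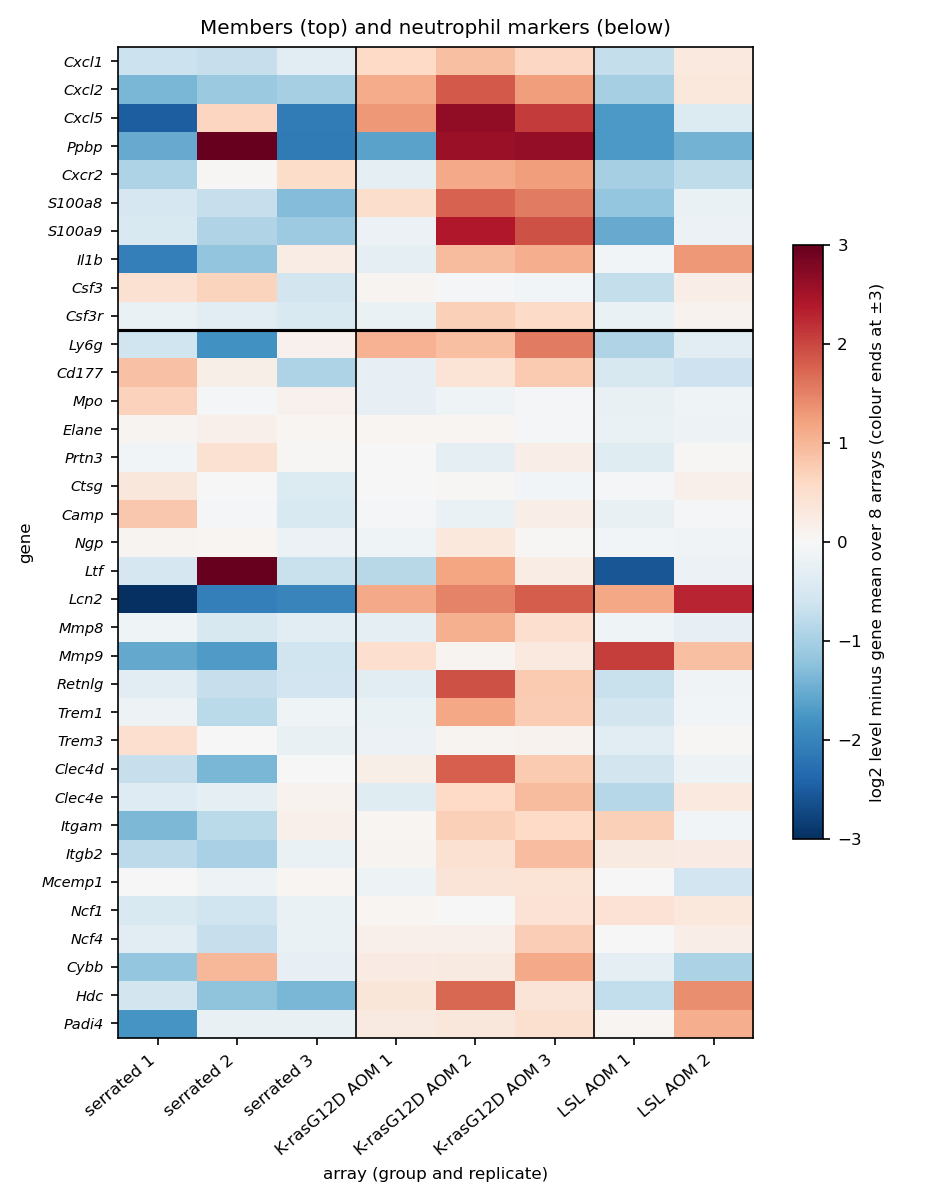
Log2 level minus the gene's mean over all 8 arrays (colour, with ends at 3 units either way) for the 10 members above the line and 25 neutrophil markers below it, by array (columns). K-rasG12D AOM 2 and 3 are high for S100a8, S100a9, Retnlg and Trem1, while Lcn2 is high in both AOM groups and Ltf is highest on serrated 2.

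Some markers of other cells that can make these chemokines also differed between the groups. In serrated tumors 3.99% of all genes fell against K-rasG12D AOM, 5.76% against all AOM and 3.4% against LSL AOM tumors. In the same order 2.46%, 3.62% and 2.31% rose. Of 12 macrophage and monocyte markers, 5 fell and 0 rose in serrated against K-rasG12D AOM tumors, 6 fell against all AOM tumors and 2 against LSL AOM tumors. Their mean level was 4.04, 4.18 and 4.59 in serrated tumors, 4.78, 5.30 and 5.12 in K-rasG12D AOM tumors, and 5.30 and 4.74 in LSL AOM tumors, so that all serrated arrays were below all AOM arrays. Against K-rasG12D AOM tumors 0 of the 12 passed without serrated 2, K-rasG12D AOM 2 or K-rasG12D AOM 3, 2 without serrated 1, 3 without K-rasG12D AOM 1 or either LSL AOM array, and 7 without serrated 3. Of 10 fibroblast markers, 1 fell against K-rasG12D AOM tumors (Col1a1, by 1.41, with 7 passing without serrated 3 and 0 without serrated 1, serrated 2, K-rasG12D AOM 2 or K-rasG12D AOM 3), 3 against all AOM tumors and 2 against LSL AOM tumors, and their means of 5.76 to 6.83 in serrated, 6.83 to 7.34 in K-rasG12D AOM and 6.51 to 7.51 in LSL AOM tumors overlapped. For T and NK cells (10 genes), B and plasma cells (7), endothelium (8) and red blood cells (2), 0 passed in serrated against K-rasG12D AOM tumors, and 1 of 8 mast cell genes, Mcpt2, rose by 3.38 (limma adjusted p = 0.0326), lost without serrated 2 or any 1 K-rasG12D AOM array (0.0622 to 0.114) and with the trend and robust options (0.0509). Of the 12 colon epithelium markers 2 rose in that comparison: Cdx2, an intestinal transcription factor, by 2.24 (adjusted p = 0.00515), and Krt20, an intestinal keratin, by 2.67 (0.0257), the second lost without serrated 2 (0.103) or K-rasG12D AOM 1 (0.0516). The part of these cell types in the members' differences was not tested.

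Markers of platelets, the known store of the Ppbp product, were set beside it. The 7 measured platelet and megakaryocyte markers averaged 4.09, 3.67 and 3.59 in serrated tumors, 3.71, 3.65 and 3.66 in K-rasG12D AOM tumors, and 3.79 and 3.69 in LSL AOM tumors. Serrated 1, the array with the highest background, was highest and the groups overlapped. Itga2b, the platelet integrin, had levels of 4.97, 3.99 and 3.59 in serrated tumors, 3.81, 3.96 and 3.85 in K-rasG12D AOM tumors, and 3.61 and 4.21 in LSL AOM tumors. Of the 7 markers 1 fell and 0 rose in serrated against all AOM tumors: Itgb3, by 1.17 (SE 0.20, limma adjusted p = 0.00915). Over all genes 5.76% fell and 3.62% rose in that comparison. The part of platelets in the levels of Ppbp was not tested.

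The genes whose profile over the 8 arrays was most like that of Ppbp, looked for after its values were seen, were Krt6a, Krt5, Tmprss11b, Tmprss11d and Sprr2d, at root-mean-square differences of 0.98 to 1.12 between mean-centred log2 levels. Krt5 and Krt6a are keratins of stratified squamous epithelium, and Sprr2d encodes a protein of the cornified envelope. Krt5 had levels of 4.33, 8.73 and 2.82 in serrated tumors, 2.86, 6.92 and 5.71 in K-rasG12D AOM tumors, and 2.64 and 5.10 in LSL AOM tumors. Krt6a had 3.71, 6.55 and 2.27 in serrated tumors, 2.43, 5.89 and 4.68 in K-rasG12D AOM tumors, and 2.34 and 3.81 in LSL AOM tumors. Serrated 2 and K-rasG12D AOM 2 and 3 were the highest, as for Ppbp, except that LSL AOM 2 lay above the remaining 4 arrays for both keratins. A list of 16 squamous epithelium genes was chosen after these values were seen. It averaged 4.01, 6.45 and 4.01 in serrated, 3.97, 5.20 and 4.61 in K-rasG12D AOM and 3.66 and 4.03 in LSL AOM tumors. Over all genes 2.46% rose and 3.99% fell in serrated against K-rasG12D AOM tumors, where 1 of the 16 rose and 0 fell. The gene that rose was Sprr1a, another cornified envelope gene, by 1.64 (limma adjusted p = 0.0209), lost without serrated 2 (0.0898), K-rasG12D AOM 1 (0.0736) or 2 (0.0968).

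On serrated 2 the members split. Ppbp, Cxcl5 and Ltf, the lactoferrin gene of neutrophil granules and glandular epithelia (5.82, 9.65 and 5.66 in serrated, 5.50, 7.51 and 6.54 in K-rasG12D AOM and 3.76 and 6.14 in LSL AOM tumors), were far above the other serrated arrays. S100a8 was at 3.44 and S100a9 at 3.92, within the range of the other serrated arrays. Without serrated 2 and K-rasG12D AOM 2 and 3 together, a setting chosen after seeing the data, K-rasG12D AOM tumors were left with 1 array. The log2 differences between serrated and K-rasG12D AOM tumors were then -2.30 for Cxcl2, -1.09 for Cxcl1, -3.60 for Cxcl5 and -1.44 for S100a8. In that limma fit 0 members passed, with adjusted p = 0.419, 0.975, 0.137 and 0.811 in the same order, and only 22 genes did. The part of squamous epithelium in the levels of Ppbp, Cxcl5, S100a8 and S100a9 was not tested.

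**Figure D5:**
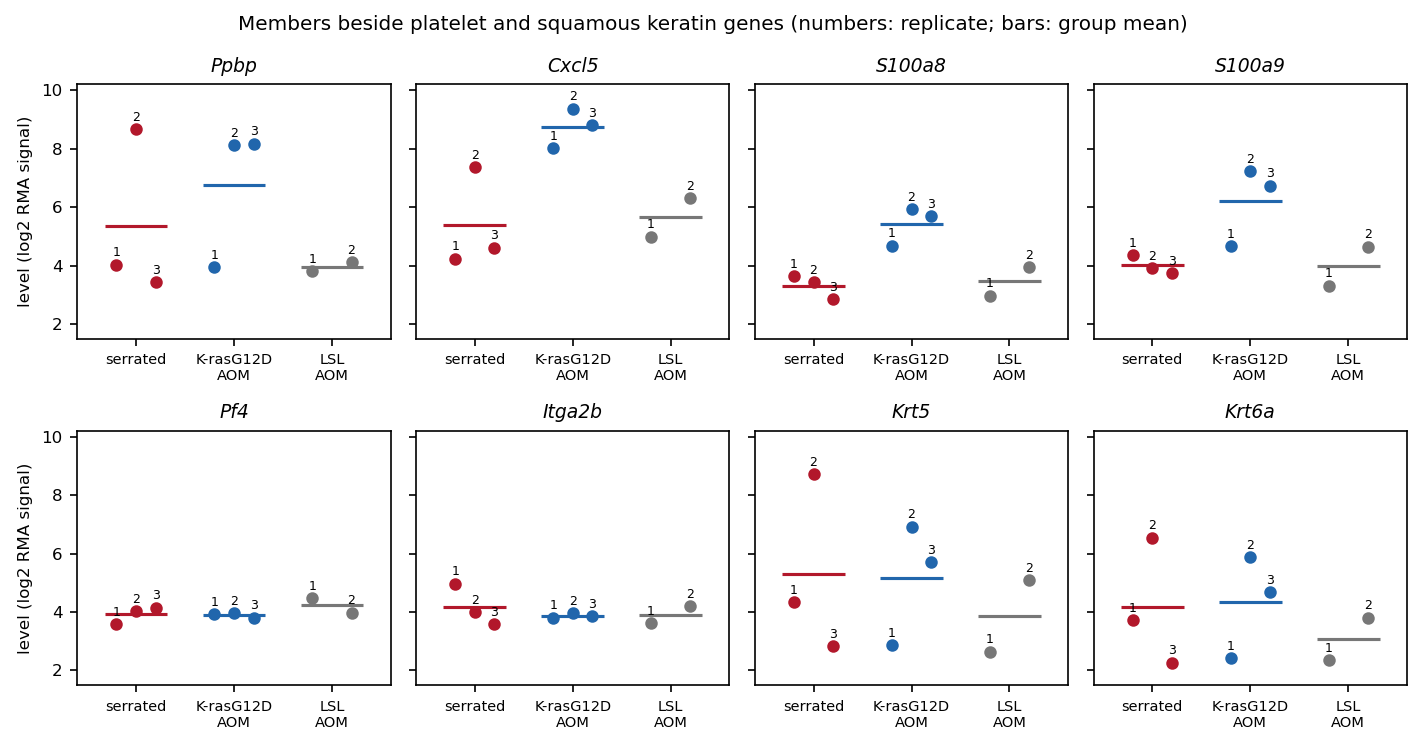
Log2 RMA level (y axis) of Ppbp, Cxcl5, S100a8 and S100a9 beside the platelet genes Pf4 and Itga2b and the squamous keratins Krt5 and Krt6a, by group (x axis); points are arrays with replicate numbers and bars are group means. Serrated 2 is at 8.66 for Ppbp and 8.73 for Krt5 but at 3.44 for S100a8 and 4.02 for Pf4.

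The genes most like S100a8 over the 8 arrays were Cdkn2a (root-mean-square difference 0.15), Sprr2h (0.30), Gbp8 (0.35), S100a9 (0.39) and Tmprss11e (0.39). Those most like Cxcl2 were Cdkn2a (0.41), Lbp (0.45), Ift57 (0.45), Ttc9 (0.46) and 2610524H06Rik (0.46). Cdkn2a is the locus of Ink4a and Arf, which the label of the serrated tumors gives as deleted. It had levels of 4.01, 3.79 and 3.37 in serrated tumors, 5.39, 6.21 and 5.95 in K-rasG12D AOM tumors, and 3.59 and 4.28 in LSL AOM tumors. K-rasG12D AOM arrays were highest and serrated arrays overlapped LSL AOM arrays. Whether its probes lie in the deleted part is not given in the sources used here.

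Among 12 NF-kB feedback and target genes, 1 fell and 0 rose in serrated against K-rasG12D AOM tumors. Over all genes 3.99% fell and 2.46% rose, and the median of the 12 was -0.31. Icam1, the endothelial and epithelial ligand of leukocyte integrins, had levels of 5.19, 4.71 and 5.29 in serrated tumors, 6.23, 6.22 and 6.46 in K-rasG12D AOM tumors, and 6.03 and 5.91 in LSL AOM tumors. Its serrated arrays were all below the AOM arrays. The fall was 1.24 (limma adjusted p = 0.0087) against K-rasG12D AOM and 1.08 (SE 0.17, adjusted p = 0.0074) against all AOM tumors, and both passed with each array left out in turn, while 2 of the 12 genes passed without serrated 3.

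Of 22 other chemokines, which mainly attract lymphocytes, monocytes or eosinophils, 3 fell and 0 rose in serrated against K-rasG12D AOM tumors. Over all genes 3.99% fell and 2.46% rose, and the median of the 22 was -0.08. Cxcl9, a ligand of CXCR3 on T cells, had levels of 3.95, 3.67 and 4.42 in serrated tumors, 5.59, 6.32 and 7.31 in K-rasG12D AOM tumors, and 3.30 and 5.48 in LSL AOM tumors. K-rasG12D AOM arrays were the 3 highest, as for Cxcl2, but LSL AOM 1 lay below every serrated array. Cxcl9 fell by 2.39 (SE 0.58, limma adjusted p = 0.0441). Cxcl10, another CXCR3 ligand, fell by 1.63 (adjusted p = 0.0456), and Cxcl14 fell by 1.82 (0.0249). None of the 3 calls held without serrated 2 (adjusted p = 0.157, 0.145 and 0.104 for Cxcl9, Cxcl10 and Cxcl14, in that order), nor without K-rasG12D AOM 2 (0.14, 0.0878 and 0.103) or 3 (0.121, 0.0645 and 0.0808). Cxcl9 and Cxcl10 were also lost without serrated 1 (0.0755 and 0.0847) or K-rasG12D AOM 1 (0.0557 and 0.064), and Cxcl10 without either LSL AOM array (0.0654), in a fit of the compared groups alone (0.0654) and with repeated quantile normalization (0.0506). Of the 22, 5 passed without serrated 3, 2 without K-rasG12D AOM 1, 1 without K-rasG12D AOM 3, and 0 without serrated 2 or K-rasG12D AOM 2. Against all AOM tumors 3 of the 22 rose and 3 fell (Ccl6, Cxcl14 and Cxcl10), beside 3.62% and 5.76% of all genes. Among the rises was Ccl20, which attracts CCR6-bearing cells, by 1.37 (SE 0.27, limma adjusted p = 0.016). Its call was lost without serrated 2 (0.0794) or LSL AOM 1 (0.0586). Its sign was opposite to that of Cxcl2, which passed in that comparison, and of Cxcl1, which did not.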

How the data were processed

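RNA of 8 mouse colonic tumors was hybridised to Affymetrix MoGene 1.0 ST arrays. The deposited values are log2 signals, and the submitters' processing notes name GCOS and RMA; versions, RMA settings and genome build: not given in the sources used here. Of 35557 probe sets, 21789 had 1 gene symbol, 1621 several and 12147 none. For 999 genes with several probe sets the brightest was taken, which left 19938 genes, with no filter on dim genes. No further normalization was applied.

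Groups came from the genotype labels. One limma fit (limma 3.58.1 in R 4.3.3) of 3 group means to 8 arrays, with 5 residual degrees of freedom and the trend and robust options off, gave 4 comparisons: serrated against the mean of both AOM groups, against K-rasG12D AOM and against LSL AOM, and K-rasG12D AOM against LSL AOM. Groups share 1 spread per gene, so errors are too small for a group that varies more than the others. P-values were adjusted by Benjamini-Hochberg over all genes. Whether samples came from separate animals is not stated, so p-values reflect only the spread among these arrays, possibly technical. Precision is limited by the number of arrays. The fit was also run on simulated data in which every array of a gene had the same noise. That setting differs from these arrays, whose spread and weights are unequal, so no result here rests on it.

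The members, 6 pathway lists and 10 cell type lists were chosen with earlier results of these data known. The text names only some of the list genes past the threshold, mostly those of serrated against K-rasG12D AOM tumors. A list gene that is not named may thus have passed. For S100a8 and Cxcl2 the 5 genes of most similar profile are named. Other list genes with values (Pf4, Cxcl3, Cxcr1, Itga2b, Cd177, Ltf, Retnlg, Trem1 and the other granule genes), the genes most like Ppbp, and the squamous epithelium list were chosen after their values were seen. Alternatives were limma options, array weights (gene by gene), a filter on the dimmest 40% of genes and repeated quantile normalization. Others were fits of the compared groups alone, the mean of all probe sets, and each array left out. For serrated against K-rasG12D AOM tumors, leaving out either LSL AOM array and fitting the compared groups alone are the same calculation. Counts over alternatives hold that result more than once.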

Additional observations from a re-analysis of the deposited data

How the results depend on the processing

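For serrated against all AOM tumors, 1 member passed; 3 passed with array weights, 2 without the dimmest 40% of genes, 2 with repeated quantile normalization, 0 in a fit of the compared groups alone, and 1 to 3 with 1 array left out. The genes past the threshold, 1871, became 5759 with array weights and 643 to 3874 with 1 array left out. For serrated against K-rasG12D AOM tumors, 4 members passed, and 1 to 5 with 1 array left out; the 1286 genes became 5677 with weights and 390 to 3186 with 1 array left out. For serrated against LSL AOM tumors, 0 members passed, and 0 to 1 with 1 array left out; the 1138 genes became 3670 with weights, 332 in a fit of the compared groups alone and 176 to 2530 with 1 array left out. Between the AOM groups 0 members passed in every alternative run, and 0 genes became 58 with weights, 4 in a fit of the compared groups alone and 0 to 4 with 1 array left out. In the 3 comparisons with serrated tumors, gene counts were lowest without serrated 2, K-rasG12D AOM 2 or an LSL AOM array and highest without serrated 3. The cause was not tested. Array weights ran between 0.24 for serrated 1 and 3.15 for serrated 2. With serrated 2 and K-rasG12D AOM 2 and 3 left out together, chosen after seeing the data, 0 members passed in either of the first 2 comparisons, and 99, 22 and 71 genes passed in the 3 comparisons with serrated tumors. That leaves K-rasG12D AOM tumors with 1 array, taken to vary like the other groups. Over 552 recomputed member differences, 18 calls were lost, 15 were gained, and 27 differences, none past the threshold, changed sign. No member has several probe sets, so averaging them touched other genes only. No paired analysis was possible because the labels share no replicate numbers between groups.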
